A study of Macaca mulatta with 24 samples.

Results

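The CC chemokines described here are 8 genes for small secreted attractants and 1 gene for a receptor, CCR2, measured in the ileum of rhesus macaques after total-body irradiation (TBI). They were chosen by symbol, as every probe that the deposited ileum table names CCL2, CCL8, CCL11, CCL20, CCL23, CCL24, CCL25, CCL28 or CCR2, which gave 13 of 43603 probes, for 9 of 16094 named genes. CCL2, CCL11, CCL20, CCL24, CCL25 and CCR2 have 1 probe each, CCL23 and CCL28 have 2, and CCL8 has 3. Of the 13 probes, 12 from 8 genes were tested, as were 36108 of all probes: a probe entered the fit if the scanner called it well above background throughout at least 1 group. The CCR2 probe reached that level on none of the arrays and was not tested.

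Whole ileum wall was taken from 24 young-adult male macaques, 1 array for each animal. The 7 groups were 4 sham-handled controls, which are labelled day 4 and served every comparison, and those given a single cobalt-60 dose of 6.7 Gy or of 7.4 Gy, with 4 animals for each dose on day 4, 4 on day 7 and 2 on day 12. Both doses are lethal to most untreated animals within weeks, so animals of a late day are those alive at that day, and because the tissue holds many cell types, fewer cells of a type and less RNA per cell cannot be told apart. Between 72.7% and 88.1% of probes were well above background on an array, and the 75th percentile of intensity, to which each array was scaled, ranged from 837.3 to 1330 between arrays. Group and place on the slide are partly bound together, since each slide carries 4 arrays, the controls lie at position 1 of slides 1 to 4, and 7.4-Gy TBI day 12 shares no slide with a control.

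Chemokines bind receptors of the G-protein-coupled kind and draw cells along a gradient. CCL2 is the main attractant of blood monocytes, through CCR2, and CCL8 is a related ligand. CCL11 and CCL24 are eotaxins, which attract eosinophils through CCR3, and CCL23 acts on myeloid cells through CCR1. The other members serve the mucosa: CCL25 from the small-intestinal epithelium calls CCR9-positive lymphocytes, CCL28 calls CCR10-positive plasma cells, and CCL20 attracts CCR6-positive cells and is known from the epithelium over lymphoid follicles. The working name of the group, chemokines for monocytes and eosinophils, therefore fits CCL2, CCL8, CCL11, CCL23 and CCL24 and not the mucosal ligands. In the RefSeq gene order of assembly T2T-MMU8v2.0, CCL2, CCL7, CCL11, CCL8 and CCL13 follow one another, CCL23 lies on the same chromosome between CCL15 and CCL18, and CCL24 is next to CCL26.

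All levels that follow are log2 intensities relative to the 75th percentile of the same array, so that 0 means the intensity of that percentile. They can be compared between animals for 1 probe but not between probes. A change is a difference of 2 group means on this scale, and a gene is called where limma's adjusted p is under 0.05 and the change is at least 2-fold. A gene that was not called is not thereby shown to be unchanged.

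**Figure D1:**
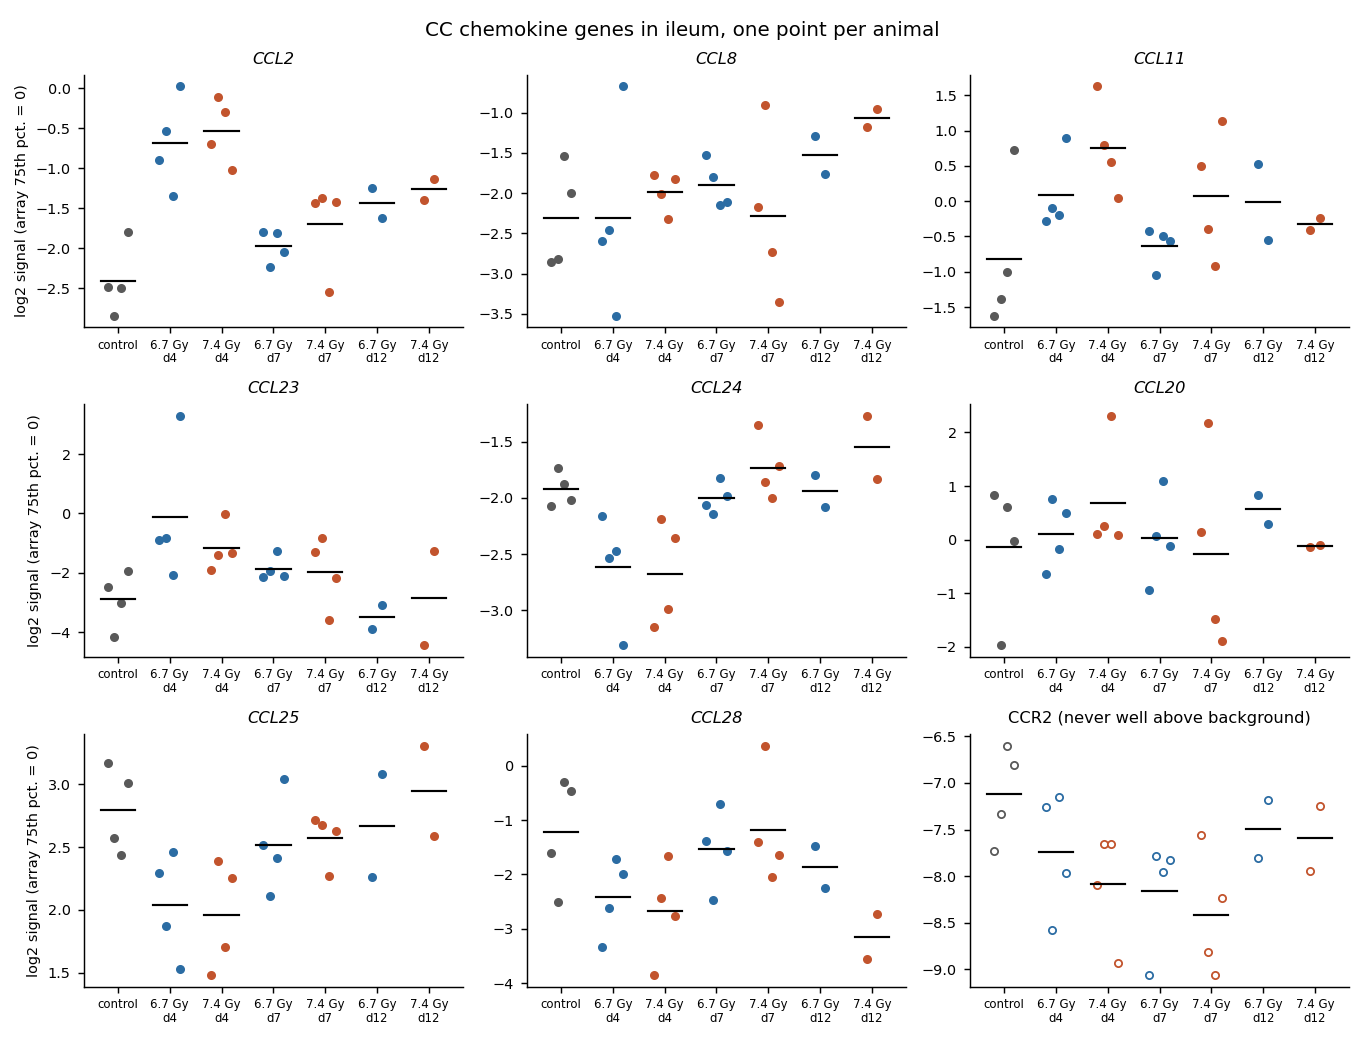
Level of each member in ileum by group, with 1 point for each animal and a bar at the group mean; the y axis is log2 signal relative to the array's 75th percentile, and for a gene with several probes the brightest is drawn. Every day 4 animal lies above all 4 controls for CCL2, whose control levels run from -2.84 to -1.79, and open points mark CCR2, which no array measured well above background.

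CCL2 was the member that rose. In the 4 controls its levels were -2.48, -2.84, -2.50 and -1.79. On day 4 the 6.7-Gy TBI animals read -0.89, -0.53, -1.35 and 0.03, and the 7.4-Gy TBI animals -0.69, -0.11, -0.30 and -1.02. Every irradiated animal of day 4 was above every control. The rise was 3.29-fold after 6.7 Gy (log2 change 1.72, SE 0.30, adjusted p 0.0045) and 3.67-fold after 7.4 Gy (1.88, SE 0.30, adjusted p 0.0013). CCL2 was the only one of the 12 member probes called at either dose on day 4, against 0.978% of all tested probes called at 6.7 Gy and 2.33% at 7.4 Gy. Over both doses the rise was 1.80 (adjusted p 0.00036), with 2.06% of all probes called. Without regard to any test, 2 of the 12 member probes at 6.7 Gy (CCL2 and CCL24) and 4 at 7.4 Gy (CCL2, CCL23, CCL24 and CCL25) had no overlap between the day 4 animals and the controls, against 11.8% and 15.7% of all tested probes. The median change over the 12 member probes was -0.08 at 6.7 Gy and 0.45 at 7.4 Gy, beside -0.10 and -0.07 over all tested probes.

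On day 7 the CCL2 levels were -1.79, -2.23, -1.81 and -2.05 after 6.7 Gy and -1.43, -1.37, -2.54 and -1.42 after 7.4 Gy. They lay between the controls and day 4, with an overlap with the controls at both doses. The fall from day 4 to day 7 was called at both doses, by 1.28 after 6.7 Gy (SE 0.30, adjusted p 0.043; 0.354% of probes called) and by 1.16 after 7.4 Gy (SE 0.30, adjusted p 0.034; 0.942% called). CCL2 was the only member probe called in each. Neither fall was called in the fit with slide as a block (adjusted p 0.089 and 0.13). At 6.7 Gy the call was also lost with scan day as a block (0.090), and leaving out any one of 6.7-Gy day 4 replicates 2 and 4 or any day 7 animal put its adjusted p between 0.071 and 0.11. At 7.4 Gy it was lost without day 4 replicate 1, 2 or 3 or day 7 replicate 3, with an adjusted p of 0.072 to 0.12.

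On day 12, with 2 animals at each dose, CCL2 was at -1.24 and -1.62 after 6.7 Gy and at -1.39 and -1.13 after 7.4 Gy. All 4 animals were above the highest control. The differences from the controls were 0.97 (95% interval 0.22 to 1.73, adjusted p 0.42) and 1.14 (0.39 to 1.90, adjusted p 0.31), and neither was called. In order of group means, CCL2 ran from 7.4-Gy day 4 (-0.53) and 6.7-Gy day 4 (-0.69) over 7.4-Gy day 12 (-1.26), 6.7-Gy day 12 (-1.43), 7.4-Gy day 7 (-1.69) and 6.7-Gy day 7 (-1.97) to the controls (-2.40). The step of 0.58 between 6.7-Gy day 4 and 7.4-Gy day 12 was the only one between neighbours larger than the within-group SD of 0.44.

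The controls and the day 4 animals can also be set against each other on the same slide, since slides 1 and 2 each hold a control and a 6.7-Gy day 4 array and slides 3 and 4 a control and a 7.4-Gy day 4 array. CCL2 was higher in the irradiated animal on 4 of 4 slides, by 1.12, 2.88, 1.82 and 1.68. The day 4 changes stayed called without any one animal, between 1.48 and 1.94 at 6.7 Gy and between 1.73 and 2.08 at 7.4 Gy. The call was lost at both doses by the methods' t-test (adjusted p 0.19 and 0.060), at 6.7 Gy when only the compared arrays entered the fit (0.13), and at 7.4 Gy with array position as a covariate (1.82, adjusted p 0.11).

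**Figure D2:**
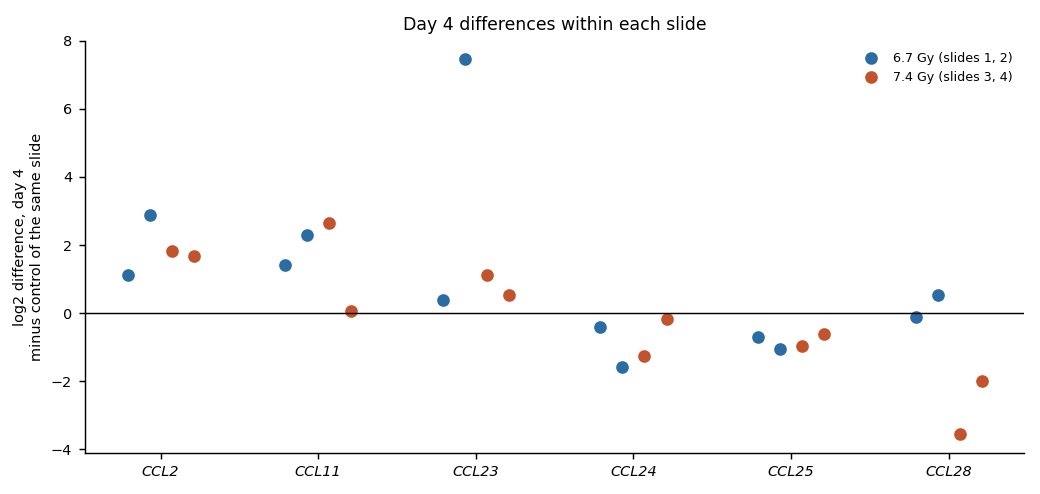
Log2 difference between the day 4 array and the control array of the same slide for 6 members, 1 point for each of slides 1 to 4 from left to right, blue for 6.7 Gy and orange for 7.4 Gy. CCL2, CCL11 and CCL23 are above 0 and CCL24 and CCL25 below 0 on every slide, while CCL28 is on both sides.

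CCL8, the other monocyte attractant, did not follow CCL2 on day 4 in these values. Its brightest probe read -2.86, -2.82, -1.54 and -2.0 in the controls and -2.59, -2.46, -3.52 and -0.67 on day 4 after 6.7 Gy, a difference of 0.00 (95% interval -1.02 to 1.01). The day 4 animals of 6.7 Gy thus held both its lowest and its highest level, and overlapped with the controls on each side. After 7.4 Gy the day 4 levels were between -2.32 and -1.78, 0.32 above the controls (adjusted p 0.74). On day 12 the levels were -1.29 and -1.76 after 6.7 Gy and -1.18 and -0.96 after 7.4 Gy, and by this probe only the latter pair was above every control. Those differences were 0.78 (adjusted p 0.72) and 1.23 (95% interval -0.01 to 2.48, adjusted p 0.62), neither of them called. By the dimmer CCL8 probes the day 12 differences were 1.18 and 1.08 after 6.7 Gy and 1.37 and 1.65 after 7.4 Gy. None of these was called, and the animals of both doses were above every control. The 3 CCL8 probes moved together over the 24 arrays, with Pearson r between 0.91 and 0.99.

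CCR2, the receptor of CCL2, could not be followed. Its probe read intensities of 1.68 to 10.6 over the 24 arrays and was not well above background on any of them, so its level has only an upper bound in every group and no fold was computed. The monocyte and macrophage marker list was measured beside it, with 10 of its 15 genes tested. CD14, the monocyte co-receptor for lipopolysaccharide, was higher by 1.14 on day 4 after 7.4 Gy (adjusted p 0.011, not called without 7.4-Gy day 4 replicate 1) and VCAN, a matrix proteoglycan that blood monocytes make, by 1.30 (adjusted p 0.0046). Neither was called with array position as a covariate, nor CD14 with only the groups compared. After 6.7 Gy none of the 10 was called, with CD14 at 0.49 (adjusted p 0.24) and VCAN at 0.93 (adjusted p 0.045), short of 2-fold. The median change over the 10 genes was 0.37 and 0.46 on day 4 at the lower and the higher dose, beside -0.07 and -0.05 over all 14119 genes with a tested probe. The summed linear level of the 10 genes was 42.2 to 54.3 in the controls, 36.9 to 76.1 on day 4 after 6.7 Gy and 58.6 to 71.3 after 7.4 Gy, where it was above all controls as CCL2 was. C1QA, a complement gene of macrophages that was not called, gave 75.5% to 86.7% of the sum on each array. The other 9 genes summed to 7.62 to 10.1 in the controls, 7.77 to 18.3 after 6.7 Gy and 11 to 14.2 after 7.4 Gy. The part of these markers in the CCL2 rise was not tested. CD68, CD163, MRC1 and C1QB have no named probe on this array, and none of the 10 was called on day 7 or day 12.

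CCL11, an eotaxin, was -1.62, -1.39, -1.0 and 0.72 in the controls. On day 4 it was -0.28, -0.10, -0.20 and 0.90 after 6.7 Gy and 1.63, 0.79, 0.56 and 0.05 after 7.4 Gy. Control replicate 4 stood with the irradiated animals, and the other 3 controls were below all 8 of them. The differences were 0.91 (SE 0.48, adjusted p 0.26) and 1.58 (SE 0.48, adjusted p 0.052), and over both doses 1.24 (adjusted p 0.062), none of them called. The value after 7.4 Gy lay at the edge of the threshold: it was called after quantile normalization (1.60, adjusted p 0.048) and with scan day as a block (1.83, adjusted p 0.047), and without control replicate 4 it was 2.10 (adjusted p 0.0096). With array position as a covariate it was 1.04 (adjusted p 0.62). On the same slide, the day 4 animal was higher on 4 of 4 slides, by 1.42, 2.30, 2.64 and 0.07, the last against control replicate 4. CCL11 levels of the later days overlapped with the controls at both doses, with differences of 0.82 and 0.50 on day 12.

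CCL24, the other eotaxin of the group, lay on the opposite side of the controls. Its control levels were close together at -2.07, -1.73, -1.88 and -2.02. On day 4 they were -2.16, -2.53, -2.47 and -3.31 after 6.7 Gy and -3.15, -2.19, -2.99 and -2.36 after 7.4 Gy, all below the lowest control. The differences were -0.69 (SE 0.23, adjusted p 0.098) and -0.75 (SE 0.23, adjusted p 0.057). Over both doses the difference was -0.72, 1.64-fold lower with an adjusted p of 0.031, which is short of the 2-fold limit. At any fold 9.24% of all tested probes passed that adjusted p. Without control replicate 1, 2 or 3 or 7.4-Gy day 4 replicate 1 or 3 the adjusted p over both doses was 0.055 to 0.084, and with array position as a covariate the difference was -0.31 (adjusted p 0.68). The adjusted p was 0.11 with only the groups compared and 0.12 by the methods' t-test. Within slides CCL24 was lower on 4 of 4, by -0.40, -1.57, -1.27 and -0.17.

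After day 4 the CCL24 levels lay on both sides of the control range. On day 7 they ran from -2.14 to -1.82 after 6.7 Gy and from -2.0 to -1.35 after 7.4 Gy, and on day 12 they were -1.80 and -2.08, and -1.27 and -1.83. Every animal of these groups was above every day 4 animal of its dose. After 7.4 Gy the return was 0.94 by day 7 (SE 0.23, adjusted p 0.029, under 2-fold) and 1.12 by day 12 (SE 0.28, adjusted p 0.035), which was called. It was the only member probe called between these days, with 1.80% of all probes called. The day 12 call rests on 2 animals, and without either the difference was 1.40 (adjusted p 0.074) or 0.84 (0.34). It was also lost with slide as a block (1.04, adjusted p 0.10), with scan day as a block (0.99, 0.091) and after normexp (0.96). The same held without 7.4-Gy day 4 replicate 1 (0.96, 0.10) or 3 (1.01, 0.077). For the day 7 return the adjusted p was 0.061 with slide as a block, 0.088 with only the groups compared and 0.16 by the methods' t-test. Without day 4 replicate 1 or 3 or day 7 replicate 1, 2 or 4 it was 0.052 to 0.11. After 6.7 Gy the differences from day 4 were 0.62 (adjusted p 0.16) and 0.68 (0.13), with 0 of 12 member probes called for day 12 against day 4, where 2.59% of all probes were called.

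The eotaxin receptor CCR3 was well above background on 5 of 24 arrays and was not tested. Of the eosinophil markers, 4 of 10 have a named probe and 3 were tested, PRG3, IL5RA and ALOX15. None was called in any comparison with the controls, and their median change on day 4 was -0.42 and -0.17. The granule gene EPX was well above background on 4 arrays, and the other 6 markers, SIGLEC8, CLC, PRG2, RNASE2, RNASE3 and ADGRE1, have no named probe.

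CCL23, the CCR1 ligand, varied the most between animals. Its main probe read -2.47, -4.16, -3.03 and -1.93 in the controls, -0.90, -0.82, -2.08 and 3.29 on day 4 after 6.7 Gy, and -1.90, -1.40, -0.01 and -1.34 on day 4 after 7.4 Gy. All 4 day 4 animals of 7.4 Gy and 3 of the 4 of 6.7 Gy were above the highest control. The differences were 2.77 (SE 0.90, adjusted p 0.090) and 1.74 (SE 0.90, adjusted p 0.25), and neither was called. With array position as a covariate they were 2.04 and 0.27 (adjusted p 0.37 and 0.96), and as the mean of both probes named CCL23 1.18 and 0.78 (adjusted p 0.14 and 0.31). A single animal, 6.7-Gy day 4 replicate 4, with an intensity of 12400 beside 284 to 707 in the other 3, carried much of the first value, which was 1.63 without it (adjusted p 0.24). On day 12 the levels were -3.89 and -3.09 after 6.7 Gy, within the range of the controls. After 7.4 Gy they were -4.44 and -1.25, the first below and the second above that range. The receptor CCR1 differed from the controls by 0.25 and 0.34 on day 4 (adjusted p 0.52 and 0.39). The other probe named CCL23 was designed on an expressed sequence tag that its description likens to human PSG5, a gene of another family, and over the 24 arrays it ran against the main probe (r = -0.29). Its changes lay between -0.41 and 0.39. This probe is kept only in the counts and medians over the 12 member probes and in the mean of both probes given above.

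The 6.7-Gy day 4 replicate 4 animal also had the highest CCL2 (0.03), CCL8 (-0.67) and CCL11 (0.90) of its group and the lowest CCL24 (-3.31) and CCL25 (1.53). Its summed level of the 6 tested absorptive epithelial markers was 186, against 360 to 473 in the rest of its group, and its summed monocyte and macrophage markers were the highest of any array at 76.1. The part of these in its chemokine levels was not tested. Without it the CCL2 change at 6.7 Gy was 1.48 (adjusted p 0.018), that of CCL24 -0.46 (0.26) and that of CCL25 -0.59 (0.27).

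**Figure D3:**
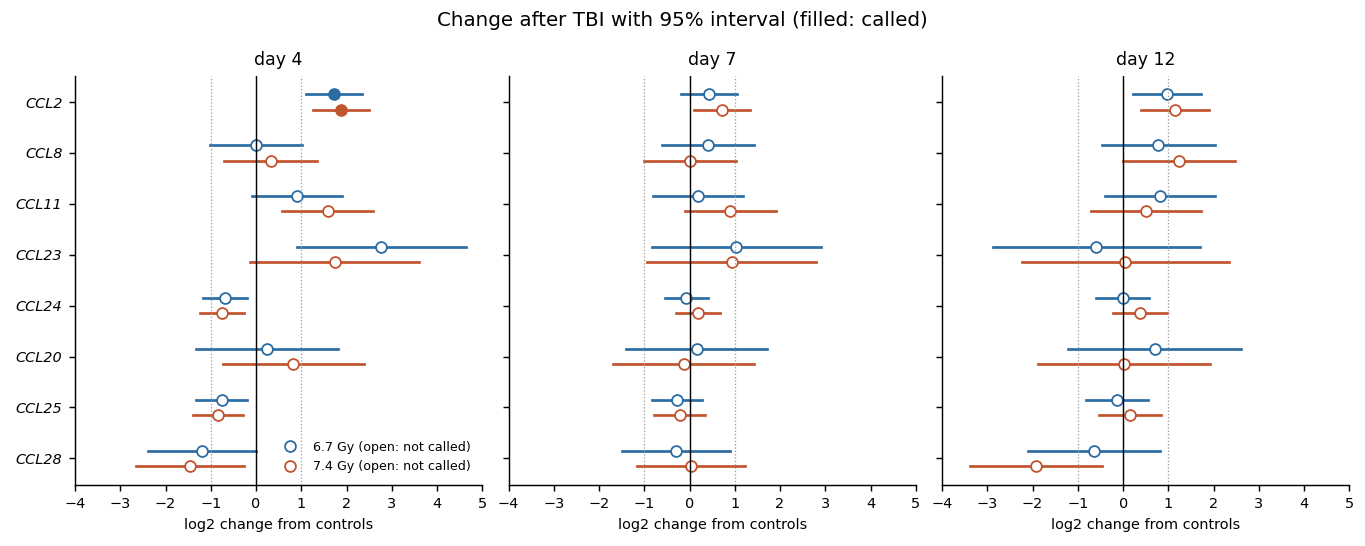
Log2 change of each tested member from the 4 controls on days 4, 7 and 12, with 95% intervals from the fit over all 24 arrays, blue for 6.7 Gy and orange for 7.4 Gy, and dotted lines at 2-fold. Filled points were called, which holds for CCL2 on day 4 at both doses (1.72 and 1.88) and for no other point.

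CCL25, the small-intestinal attractant of CCR9-positive lymphocytes, was 3.17, 2.57, 2.44 and 3.01 in the controls. On day 4 it was 2.29, 1.87, 2.46 and 1.53 after 6.7 Gy and 1.48, 2.39, 1.70 and 2.25 after 7.4 Gy. Only 6.7-Gy day 4 replicate 3 reached the lowest control. The differences were -0.76 (SE 0.27, adjusted p 0.11) and -0.84 (SE 0.27, adjusted p 0.062), and over both doses -0.80, 1.74-fold lower with an adjusted p of 0.035, again short of 2-fold. That p was 0.13 without control replicate 1, 0.082 without control replicate 4, and 0.054 to 0.067 without 6.7-Gy day 4 replicate 2 or 4 or 7.4-Gy day 4 replicate 1 or 3. With array position as a covariate the difference was -0.74 (adjusted p 0.35) and with scan day as a block -0.86 (0.055), and the adjusted p was 0.085 with only the groups compared and 0.097 by the methods' t-test. Within slides CCL25 was lower in the day 4 animal on 4 of 4, by -0.70, -1.04, -0.96 and -0.62. By day 12 the levels were 2.26 and 3.08 after 6.7 Gy and 3.31 and 2.59 after 7.4 Gy, with differences from the controls of -0.13 and 0.15. The rise from day 4 to day 12 after 7.4 Gy was 0.99 (adjusted p 0.092), not called.

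Of the absorptive epithelial markers, 6 were tested, and on day 4 VIL1 and KRT20 were called at 6.7 Gy and VIL1 alone at 7.4 Gy. VIL1, the brush-border protein villin, fell by 1.32 after 6.7 Gy (adjusted p 0.0011) and by 1.27 after 7.4 Gy (adjusted p 0.00085, not called with array position as a covariate). KRT20, a keratin of mature epithelium, fell by 1.05 after 6.7 Gy (adjusted p 0.015), a call lost after quantile normalization, with array position as a covariate and without control replicate 1 or 6.7-Gy day 4 replicate 2 or 4, which gave changes down to -0.85. EPCAM, FABP6 and SLC10A2 were lower without being called, and FABP2, a fatty acid binding protein that was well above background in 1 of 4 controls, was 2.02 and 0.90 higher (adjusted p 0.22 and 0.62). The medians over the 6 genes were -0.65 and -0.54. Their summed linear level was 529 to 642 in the controls, 186 to 473 on day 4 after 6.7 Gy and 429 to 447 after 7.4 Gy, below every control, as CCL24 was. FABP6, the ileal bile acid binding protein, gave 68.6% to 85.4% of that sum on each array. The other 5 genes summed to 108 to 202 in the controls, 57.6 to 97.1 after 6.7 Gy and 77.8 to 84.2 after 7.4 Gy. By day 12 VIL1 differed from the controls by -0.12 and -0.60, neither called. The part of the epithelial change in the CCL24 and CCL25 values was not tested.

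CCR9, the receptor of CCL25, fell at both doses on every day. Its control levels were -0.93, -1.80, -1.63 and -0.83. After TBI the levels ran from -3.36 to -2.38 and from -3.21 to -2.54 on day 4, from -3.59 to -3.12 and from -4.14 to -3.05 on day 7, and were -3.05 and -3.51, and -3.44 and -3.30, on day 12. Every irradiated animal was below every control. In order of day the falls were 1.67, 2.0 and 1.98 after 6.7 Gy (adjusted p 0.0022, 0.0014 and 0.024) and 1.68, 2.40 and 2.07 after 7.4 Gy (adjusted p 0.0012, 9.1e-05 and 0.029). The day 4 and day 7 calls were kept without any one animal. Every CCR9 call was lost by the methods' t-test, and that of day 4 at 6.7 Gy also with only the groups compared. Those of day 12 were lost without control replicate 4 or either day 12 animal, at 6.7 Gy also without control replicate 1, though the change stayed between -2.24 and -1.75. Both day 12 calls were also lost with slide as a block and with only the groups compared, and that at 7.4 Gy with scan day as a block. On the same day the CCL25 differences of -0.13 and 0.15 had 95% intervals from -0.81 to 0.55 and from -0.53 to 0.83.

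**Figure D4:**
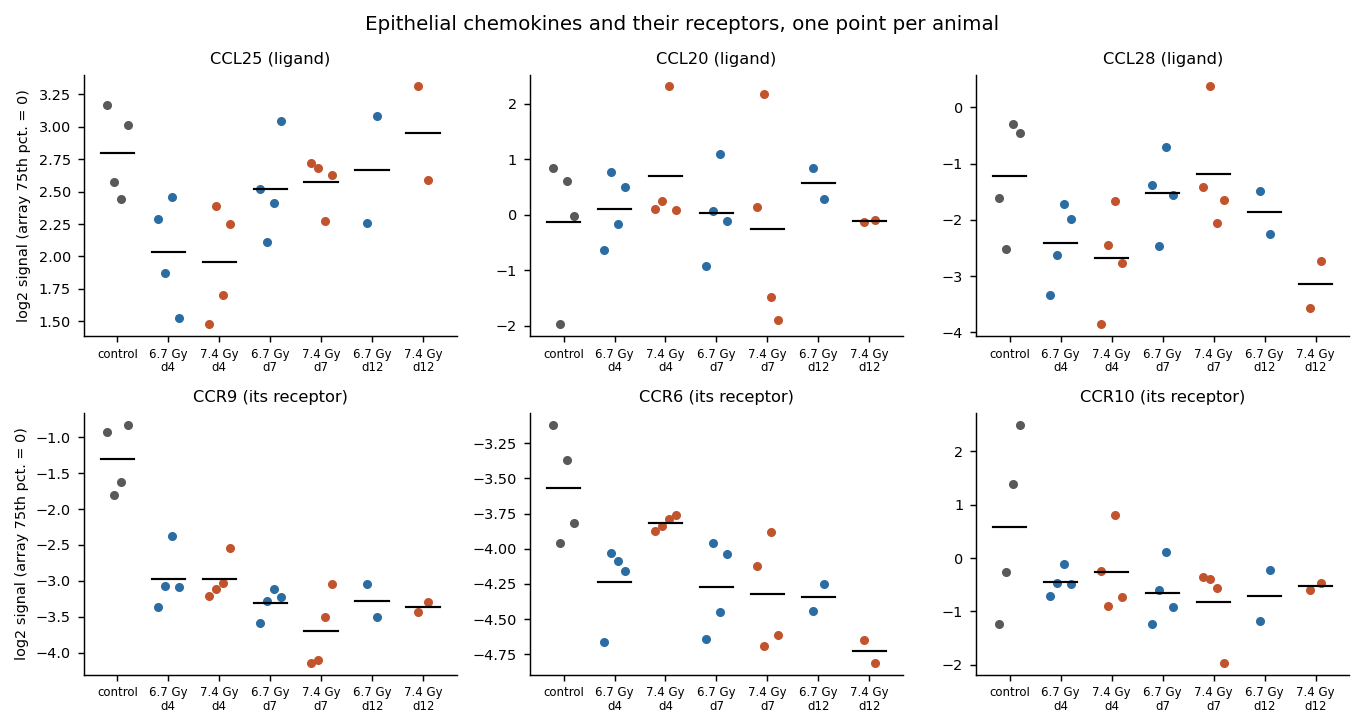
Levels of CCL25, CCL20 and CCL28 (top row) and of their receptors CCR9, CCR6 and CCR10 (bottom row) in each animal, as log2 signal relative to the array's 75th percentile, with a bar at the group mean. CCR9 lies below all 4 controls in every irradiated animal, whereas CCL25 is low on day 4 (means 2.04 and 1.96) and near the controls (2.80) later.

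CCL28, the attractant of mucosal plasma cells, was -1.61, -2.51, -0.30 and -0.46 in the controls by its brighter probe. On day 4 it was -3.33, -2.62, -1.71 and -1.99 after 6.7 Gy and -3.85, -2.44, -1.67 and -2.76 after 7.4 Gy. Control replicates 1, 3 and 4 were above all day 4 animals, replicate 1 by little, and control replicate 2 lay among them. The differences were -1.19 (adjusted p 0.22) and -1.46 (adjusted p 0.13), over both doses -1.33 (adjusted p 0.092). With array position as a covariate they were -1.75, -2.58 and -2.17 (adjusted p 0.21, 0.18 and 0.14). On the slides that hold a control and a day 4 array, the 2 animals of 6.7 Gy differed from their controls by -0.10 and 0.52 and the 2 of 7.4 Gy by -3.55 and -1.98, while the fit with slide as a block gave -1.14 and -1.77 (adjusted p 0.32 and 0.11). On day 7 the means were -1.53 and -1.18, near the control mean of -1.22. On day 12 after 7.4 Gy both animals, at -3.56 and -2.73, were below every control (-1.92, 95% interval -3.39 to -0.46, adjusted p 0.42), and after 6.7 Gy they were at -1.48 and -2.25. The other CCL28 probe gave the same picture (r = 0.99). Its receptor CCR10 lay 1.03 and 0.86 below the controls on day 4, with adjusted p 0.29 and 0.40 and control levels spread from -1.24 to 2.49.

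CCL20, the CCR6 ligand, showed no direction. Its levels were 0.84, -1.97, 0.61 and -0.03 in the controls, -0.64, 0.76, -0.17 and 0.49 on day 4 after 6.7 Gy and 0.11, 0.25, 2.31 and 0.08 on day 4 after 7.4 Gy. After 7.4 Gy on day 7 they ran from -1.89 to 2.17. Its 6 differences from the controls lay between -0.13 and 0.82, with adjusted p of 0.54 or more and day 4 intervals from -1.32 to 1.80 and from -0.74 to 2.38, so that the interval at 6.7 Gy includes a 2-fold change in either direction. CCR6 was lower than the controls by -0.67 and -0.25 on day 4 and by -0.78 and -1.17 on day 12, with adjusted p of 0.080, 0.50, 0.32 and 0.096. Of the follicle-associated epithelium markers, 3 of 6 were tested and none was called in any comparison with the controls.

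No member probe was called on day 7 or day 12 against the controls at either dose. The share of all probes called was 0.235% and 0.568% on day 7 and 0.108% and 0.0443% on day 12, for the lower and the higher dose. At limma's unadjusted p under 0.05 with 2-fold, 0 of 12 member probes passed on day 7 at either dose (1.32% and 2.38% of all probes), and on day 12 there were 0 at 6.7 Gy (1.68%) and 5 at 7.4 Gy (1.84%), which were the CCL2 probe, 2 of the CCL8 probes and both CCL28 probes. On day 7 no member probe was free of overlap with the controls (7.98% and 7.96% of all probes were), and on day 12 there were 3 at 6.7 Gy and 6 at 7.4 Gy (22.8% and 17.8%). The 3 were the CCL2 probe and 2 of the CCL8 probes. The 6 were the CCL2 probe, all CCL8 probes and both CCL28 probes. Probes of these genes are not separate members, with r between 0.91 and 0.99 for the same gene. The day 12 comparisons have 2 animals against 4, and at 6.7 Gy the 95% interval of CCL23 ran from -2.88 to 1.70.

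The doses were compared directly on each day. None of the 12 member probes was called between 7.4 Gy and 6.7 Gy on day 4, 7 or 12, with 0%, 0% and 0.00277% of all probes called. By limma's unadjusted p under 0.05 the count was also 0 of 12 on each day, against 5.54%, 4.02% and 6.25% of all probes. For CCL2 the differences were 0.16 on day 4 (95% interval -0.46 to 0.78), 0.28 on day 7 (-0.34 to 0.90) and 0.17 on day 12 (-0.71 to 1.04). For CCL24 they were -0.06 (-0.54 to 0.43), 0.27 (-0.21 to 0.75) and 0.39 (-0.29 to 1.07), and for CCL25 -0.08 (-0.64 to 0.47), 0.05 (-0.50 to 0.61) and 0.28 (-0.50 to 1.07). On day 4 a dose difference of 2-fold thus lies outside the intervals of CCL2, CCL24 and CCL25 but inside those of CCL8, CCL11, CCL20, CCL23 and CCL28. The largest differences were those of the CCL28 probes on day 12, at -1.27 and -1.58, with 2 animals at each dose.

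The rest of the CC chemokine system was read from fixed lists. Of the 16 other CC ligands, 10 were tested, and on day 4 the same pair of them was called at both doses. CCL19 rose by 2.83 (adjusted p 0.0014) and 2.40 (0.0031), and CCL21 by 1.12 (0.0057) and 1.23 (0.0016); both are ligands of CCR7 that guide lymphocytes and dendritic cells within lymphoid tissue. Control levels of CCL19 ran from -1.98 to -0.73 and day 4 levels from 0.61 to 1.94, with no overlap. The CCL19 call at 7.4 Gy was lost with array position as a covariate, and the CCL21 call at 6.7 Gy without day 4 replicate 2 (0.92). The median over the 10 ligands was 0.74 and 0.14 on day 4. Neither CCL13 nor CCL26 was called, and both are named here after their values were seen. CCL13, the neighbour of CCL8, was 1.0 and 1.57 above the controls (adjusted p 0.39 and 0.18). CCL26, an eotaxin like its neighbour CCL24, was at -0.93 to 1.23 in the controls, at -5.09 to 0.78 on day 4 after 6.7 Gy (-2.53, adjusted p 0.14) and at -3.87 to 0.28 after 7.4 Gy (-2.09, adjusted p 0.20).

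Of the 13 listed receptors and decoys, 9 were tested. ACKR1, the decoy receptor of venular endothelium that binds CCL2 and other inflammatory chemokines, rose on day 4 by 1.22 (adjusted p 0.011) and 1.59 (0.00083). Its 6.7-Gy call was lost without day 4 replicate 2 (0.97) and its 7.4-Gy call with array position as a covariate. ACKR4, which scavenges CCL19, CCL21 and CCL25, was lower by 1.01 at 7.4 Gy (adjusted p 0.030), a call kept in 3 of 8 fits that left out an animal and lost after quantile normalization, with slide or scan day as a block and with only the groups compared. CCR7 was lower by 2.31 on day 7 after 7.4 Gy (adjusted p 0.0075, not called with slide as a block) and by 2.68 on day 12 after 6.7 Gy (0.040, lost in 6 of 6 fits that left out an animal). The remaining receptors, CCR9 apart, were not called, and the median over the 9 was -0.67 and -0.68 on day 4.

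Of the lymphocyte homing genes, 4 of 7 were tested, and ITGA4, the integrin subunit that binds gut venules, was lower by 1.25 on day 7 after 6.7 Gy (adjusted p 0.011), by 1.48 after 7.4 Gy (0.0019) and by 1.41 on day 12 after 6.7 Gy (0.040). The day 12 call was lost in 6 of 6 fits that left out an animal, with slide or replicate as a block and without a filter on dim probes, and both it and the 7.4-Gy day 7 call with only the groups compared, and that of day 7 at 6.7 Gy without control replicate 4 or day 7 replicate 3. Of the cytokines known to induce chemokines, 10 of 15 were tested and none was called in any of these comparisons. On day 4 TNF differed from the controls by -0.17 and -0.04, IL1B by -0.32 and -0.08, and IL6 by -0.86 and -0.85 (adjusted p 0.12 and 0.097).

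**Figure D5:**
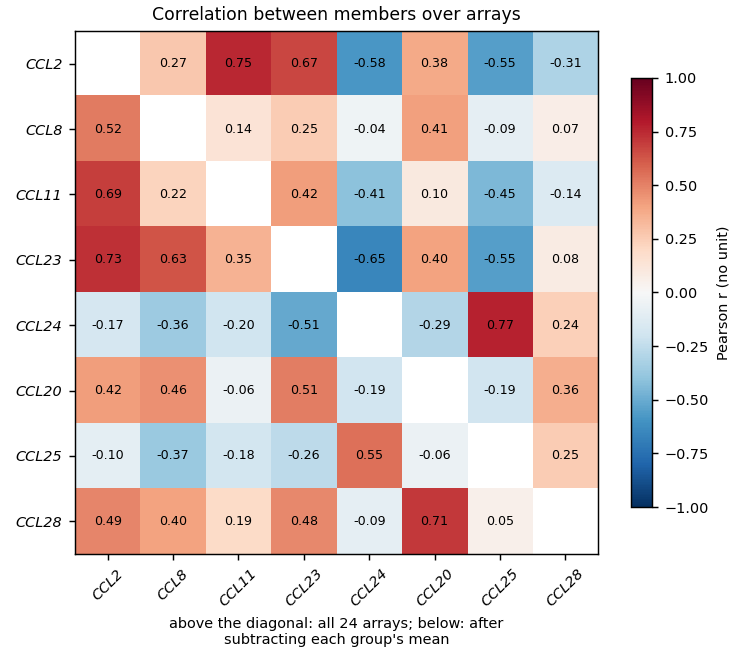
Pearson correlation between the 8 tested members over the 24 arrays (above the diagonal) and after the mean of each group was subtracted (below it), from blue at -1 to red at 1. CCL2 runs with CCL11 (0.75 and 0.69) and with CCL23 (0.67 and 0.73), and CCL24 with CCL25 (0.77 and 0.55).

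Over the 24 arrays, which share slides and scaling, the highest correlations between members joined CCL2 with CCL11 and CCL23, and CCL24 with CCL25. CCL2 correlated with CCL11 (r = 0.75) and CCL23 (r = 0.67), CCL11 with CCL23 less (r = 0.42), and CCL24 with CCL25 (r = 0.77), while CCL24 ran against CCL2 (r = -0.58) and CCL23 (r = -0.65). With the group means subtracted, CCL2 still ran with CCL11 (0.69) and CCL23 (0.73) and CCL24 with CCL25 (0.55), while CCL24 was at -0.51 with CCL23 and at -0.17 with CCL2. CCL8 was at 0.27 with CCL2 and 0.25 with CCL23 over all arrays, and at 0.52 and 0.63 within groups. CCL20 was at 0.38 with CCL2 and 0.40 with CCL23 over all arrays, and CCL28 at -0.31 with CCL2, against 0.49 within groups. CCL20 and CCL28 were at 0.36 over all arrays and at 0.71 within groups. These are descriptions over 24 arrays with no test. The 6.7-Gy day 4 replicate 4 animal was at the extreme of its group for CCL2, CCL8, CCL11, CCL23, CCL24 and CCL25. Its part in these correlations was not tested.

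Among 14118 other named genes, GDF15, a stress-induced growth factor, ran most like CCL2 over the 24 arrays (r = 0.88). DDX28 and LOC721886 followed (0.86 each). With the group means subtracted, the r of CCL2 with GDF15, DDX28 and LOC721886 was 0.63, 0.66 and 0.61. CCL11 ran most like LOC722136 (0.87), PROCR (0.85), the endothelial protein C receptor, and NR2F1 (0.83). CCL8 was nearest to LOC714602 (0.85), SOCS1 (0.79), a feedback inhibitor of cytokine signalling, and LOC712321 (0.69), and CCL23 to LOC704056, LOC716398 (0.88 each) and POLG2 (0.87). CCL24 ran with DAK (0.90), CSAD (0.90) and KHK (0.89). CSAD makes a precursor of taurine, and KHK is the ketohexokinase of fructose metabolism. CCL25 ran with EXOC3L4 (0.84), SYT4 and DCAF11 (0.83 each). CCL28 was nearest to PIGR (0.81), the receptor that carries IgA across the epithelium, TNFSF13 (0.78), a cytokine that plasma cells need, and PDZK1IP1 (0.78). CCL20 was nearest to ZC3H12A (0.76), an RNase induced by inflammation, BIRC3 (0.71), an NF-kappa-B target, and PMAIP1 (0.63). For CCL20 the first 2 were closer within groups (0.89 and 0.83) than over all arrays. So were SOCS1 (0.80) and LOC712321 (0.72) with CCL8 and PDZK1IP1 (0.87) with CCL28. All other pairs named here had a lower r within groups.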

How the data were processed

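Ileum arrays of 24 macaques (1 per animal, no technical replicates) were grouped by sample title. The treatment protocol in the labels names 21 days as its last time, while title, day field and methods give 12 for those 4 arrays, which was used. The members and the gene lists were chosen with earlier results of these data known.

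Total RNA was labelled by the authors and hybridized to Agilent single-color arrays. Feature Extraction 11.0.1.1 gave the deposited background-subtracted intensity of each spot, with no scaling between arrays. The deposited normalized table holds log2 values that the authors scaled to the 75th percentile of each array and centred on the median of each probe. It agrees within 0.00118 with values computed here from the intensities.

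Here log2 intensity minus the 75th percentile of the array was used, spots of a probe were averaged, and the 36108 of 43603 probes flagged well above background throughout at least 1 of 7 groups were tested with limma 3.58.1 in R 4.3.3. The fit had 1 mean for each group over all 24 arrays, with Benjamini-Hochberg adjustment over all tested probes. Calls needed adjusted p under 0.05 and 2-fold. The script was tested on simulated data. Replicate error is that between animals, and their number limits the precision. Controls are shared by all comparisons with them.

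Members are named by their brightest probe, of the lists the genes called against the controls and the members' receptors with TNF, IL1B and IL6, and for each member the 3 most correlated genes. Symbols are those of the deposited table. Alternatives were quantile normalization, normexp (offset 50, on median signals, the files having no mean signal), other filters on dim probes, the methods' t-test, trended robust variance, only the groups compared, slide, position, replicate and, added after the data were seen, scan day (2 days, 4 of 6 slides on the first), the deposited table, the mean of a gene's probes, and leaving out each animal. Jejunum and colon were not analysed here.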

Additional observations from a re-analysis of the deposited data

Results flagged for a closer look

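Within the 40 groups of 4 animals checked (8 members, controls, day 4 and day 7), a lone animal was flagged as outside the other 3 in 3 of them, where chance gives about 1 in 20. The measure was the gap from that animal to its nearest, divided by the range of the 4 animals. It was 0.949, 0.844 and 0.926 in the order below. CCL23 of 6.7-Gy day 4 replicate 4, at 3.29 beside -2.08 to -0.82, was not flagged by this measure. CCL2 of 7.4-Gy day 7 replicate 3 was at -2.54, beside -1.43 to -1.37 in the other 3. CCL11 of 6.7-Gy day 4 replicate 4 was at 0.90, beside -0.28 to -0.10. CCL20 of 7.4-Gy day 4 replicate 3 was at 2.31, beside 0.08 to 0.25.

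Day 7 differed from day 4 by limma's adjusted p for CCL2 at 6.7 Gy (-1.28) and 7.4 Gy (-1.16) and for CCL24 at 7.4 Gy (0.94, under 2-fold), and day 12 from day 4 for CCL24 at 7.4 Gy (1.12). The explanations of these values were not tested.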

How the results depend on the processing

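CCL2 was called on day 4 over both doses in every alternative tried, and the deposited normalized table gave the same member calls as the intensities in every comparison. Day 4 against the controls at 6.7 Gy had 1 member call, CCL2, and 0 by the methods' t-test or with only the groups compared. At 7.4 Gy the 1 call, CCL2, became 0 by the methods' t-test and with array position as a covariate, and became 2, with CCL11 added, after quantile normalization, over probes above background on all arrays, with trended robust variance, with the replicate block and with scan day as a block. Over both doses it became 2, again with CCL11, with slide as a block or the replicate block. The 1 call of day 7 against day 4 became 0 at 6.7 Gy without a filter on dim probes, by the methods' t-test, with only the groups compared, with slide and with scan day as a block, and 0 at 7.4 Gy by the methods' t-test, with only the groups compared and with slide as a block. The 1 call of day 12 against day 4 at 7.4 Gy became 0 by the methods' t-test, with only the groups compared, with slide, replicate and scan day as a block, and was CCL25 in place of CCL24 after normexp. At its unadjusted threshold with 2-fold the methods' t-test passed 1 of the 12 member probes at 6.7 Gy and 3 at 7.4 Gy on day 4. Of all 36108 tested probes, 663 and 1083 passed. Of the listed genes called against the controls on any day, CCR9 included, the t-test kept CCL19 and ACKR1 on day 4 at 7.4 Gy, and with only the groups compared CCL19 alone was kept on day 4 at 6.7 Gy, ACKR4 and CD14 were lost on day 4 and ITGA4 on day 7 at 7.4 Gy, and no listed gene was kept on day 12. Over all probes, 353 and 842 were called on day 4 at the lower and the higher dose. The t-test called 0 and 125, only the groups compared 49 and 418, array position 199 and 144, and normexp 216 and 485. Against the later days array position could not be fitted, since position and group cannot be told apart there.

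Without 1 animal the member calls ranged from 1 to 2 on day 4 at 7.4 Gy (2 with CCL11, without control replicate 4), from 1 to 3 over both doses, from 0 to 1 for day 7 against day 4 at 6.7 Gy, from 0 to 2 at 7.4 Gy (2 with CCL24, without day 4 replicate 4), and from 0 to 1 for day 12 against day 4 at each dose. The 3 were CCL2 and both CCL28 probes, without control replicate 2, while CCL11 joined CCL2 without control replicate 4 and CCL23 did so without 6.7-Gy day 4 replicate 3. At 6.7 Gy the 1 was CCL23 without day 4 replicate 3 or a CCL8 probe without replicate 4.

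The replicate numbers do not pair animals, since deviations of arrays with the same number correlated between -0.26 and 0.23. With the replicate block CCL11 at 7.4 Gy on day 4 was called (1.58, adjusted p 0.039), and CCL24 from day 4 to day 12 at 7.4 Gy was not (1.05, adjusted p 0.079).

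Changes of sign were all in values that were not called. With slide as a block CCL20 was -0.13 on day 4 at 6.7 Gy, -0.03 over both doses and -1.11 on day 12 at 7.4 Gy, and with scan day -0.38, -0.09 and -1.24. CCL23 on day 12 at 7.4 Gy was -0.35 with slide and -0.40 with scan day. With scan day CCL8 and CCL28 were -0.13 and -0.15 on day 7 at 7.4 Gy. With array position CCL8 was -0.11 on day 4 at 7.4 Gy and -0.16 over both doses. After normexp CCL24 was 0.03 on day 12 at 6.7 Gy and CCL20 -0.02 on day 12 at 7.4 Gy. Without 1 animal, CCL20 ranged from -0.37 to 0.57 on day 4 at 6.7 Gy, from -0.08 to 0.86 over both doses, from -0.45 to 0.49 on day 7 at 6.7 Gy, from -0.94 to 0.41 on day 7 at 7.4 Gy and from -0.59 to 0.34 on day 12 at 7.4 Gy. CCL8 ranged from -0.11 to 0.41 on day 4 over both doses and from -0.44 to 0.37 on day 7 at 7.4 Gy, and CCL28 from -0.74 to 0.01 and from -0.48 to 0.34 on day 7 at the lower and the higher dose. CCL11 ranged from -0.08 to 0.70 on day 7 at 6.7 Gy, CCL23 from -1.54 to 1.65 on day 12 at 7.4 Gy, and on day 12 CCL24 from -0.16 to 0.13 at 6.7 Gy and CCL25 from -0.54 to 0.28 and from -0.21 to 0.51. The cause was not tested for any of these.

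The number of animals, 2 per dose on day 12, limits every comparison, and CCR2 stayed below the level this array can follow.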
